A study of Mus musculus with 31 samples.

Results

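The genes of the mouse mitochondrial DNA were taken as every gene whose symbol starts with mt- in the count tables, which gave 37 of the 55401 genes listed, namely 13 protein-coding, 2 rRNA and 22 tRNA genes. The libraries came from brain of mice aged 13 months. Each library is 1 mouse by its label, and the spread between mice is the error behind every test. The number 236 is on both a cortex A+/Pwt/wt and a CD11b+ A-/Pwt/wt library, and whether it was reused or is an error in the labels is not given. Omission of either library changed no count of called mitochondrial genes. All mice were on the C57BL/6J background and were written A+ when they carried the APPswe/PS1dE9 transgenes, which express mutant human APP and presenilin 1 from the mouse prion protein promoter in a single line, and A- when they did not. Pki/ki mice were homozygous for the P522R variant of PLCγ2, a phospholipase of immune cells, made by CRISPR/Cas9 editing of the mouse gene, and Pwt/wt mice carried the unedited gene.

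The temporo-occipital cortex of females was sequenced in 1 A-/Pwt/wt, 4 A+/Pwt/wt and 4 A+/Pki/ki mice. CD11b+ microglia were isolated with magnetic beads from enzymatically dissociated whole brain of 7 female A-/Pwt/wt, 4 female A+/Pwt/wt, 4 female A+/Pki/ki, 3 male A-/Pwt/wt and 4 male A-/Pki/ki mice. Libraries held 25226544 to 43129427 counts in cortex and 16229831 to 25118180 counts in CD11b+ microglia. Against the cortex of A+/Pwt/wt mice, all 10 microglial markers were higher and all 12 neuronal markers lower in the CD11b+ libraries, where no microglial, neuronal, astrocyte or oligodendrocyte marker was at 0 in any library. Summed oligodendrocyte markers reached 7213 to 58426 counts per 1000000 of all counts of a library (CPM) in the CD11b+ libraries, against 4002 to 6730 CPM in cortex. The sums did not speak for every marker, since of the 8 oligodendrocyte markers 2 were higher and 4 lower in the CD11b+ libraries of A+/Pwt/wt mice, with a median log2 fold change of -0.52. Of all genes tested between these CD11b+ libraries and cortex, 37.7% were called higher and 40.2% lower.

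Mitochondrial DNA is a small circular genome that is transcribed on both strands into long precursors, from which tRNAs are cut out between the mRNAs and rRNAs. Its proteins are core subunits of complexes I, III and IV of the respiratory chain and of the ATP synthase, while the remaining subunits, and the polymerase, transcription and translation factors that serve this genome, are encoded in the nucleus. Pieces of mitochondrial DNA have also been copied into nuclear chromosomes during evolution, and such a copy can be identical in sequence to the gene it came from. A read from an identical stretch fits both places equally well, and the deposited counts held uniquely placed reads only.

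Such copies bear on the levels of several of the genes given here. The stretch chrM:6390-11042 of GRCm38, which runs from the 3' part of mt-Co1 to the middle of mt-Nd4 and spans 4653 bases, is matched by annotated pseudogenes on the minus strand of chromosome 1 that together span 4654 bases, chr1:24611535-24616188. The copies keep the order of the genes, and the bases between neighbouring copies equal those between the mitochondrial genes except between the copies of mt-Nd3 and mt-Nd4l, where there are 74 instead of 73. The first 60 bases of mt-Co2 (subunit 2 of complex IV, chrM:7013-7072, plus strand) and of its copy Gm28661 (chr1:24615506-24615565, minus strand) are shown because no base separates them, and the first 60 of mt-Nd3 (subunit 3 of complex I, chrM:9459-9518, plus strand) and its copy Gm28438 (chr1:24613060-24613119, minus strand) because 1 base does, in capitals.
mt-Co2: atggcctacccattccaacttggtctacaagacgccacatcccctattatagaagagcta
Gm28661: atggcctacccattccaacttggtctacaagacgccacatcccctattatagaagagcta
mt-Nd3: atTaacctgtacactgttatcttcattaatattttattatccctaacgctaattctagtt
Gm28438: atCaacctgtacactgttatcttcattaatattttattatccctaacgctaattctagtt

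By contrast, mt-Co1 (subunit 1 of complex IV, which holds the site where oxygen is reduced) also has a full-length copy, Gm13340 on chromosome 2, but the 1545 aligned bases differ at 37 positions. The 100 bases chrM:5778-5877 of mt-Co1, plus strand, and chr2:22589098-22589197 of the copy, minus strand, are shown to make clear how densely the differences lie, with the 5 differing bases in capitals.
mt-Co1: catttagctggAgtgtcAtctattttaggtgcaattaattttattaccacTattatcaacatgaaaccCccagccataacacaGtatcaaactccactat
Gm13340: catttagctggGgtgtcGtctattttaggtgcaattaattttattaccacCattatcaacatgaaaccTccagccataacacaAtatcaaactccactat

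The share of all 150-base windows of a gene that occur unchanged in an annotated nuclear transcript separated the genes sharply. It was 99.4% for mt-Co2 and mt-Atp6 (ATP synthase subunit a), 99.8% for mt-Co3 (subunit 3 of complex IV), 98.0% for mt-Nd4l and 97.0% for mt-Nd3 (both complex I), 59.2% for mt-Nd4 and 23.6% for mt-Co1, and 0% for the other protein-coding and both rRNA genes. Counts per library ran from 223114 to 1357678 for mt-Co1, but only from 68 to 713 for mt-Co2, 60 to 732 for mt-Co3, 45 to 659 for mt-Atp6 and 35 to 534 for mt-Nd4l. The nuclear copy Gm28661 received 115 to 1556 counts per library. Because only uniquely placed reads were counted, the levels of these genes cannot be compared with those of the other genes.

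mt-Atp8 (ATP synthase subunit 8) had the fewest counts of the protein-coding genes, 4 to 122 per library. It lies between mt-Co2 and mt-Atp6, in a gap of 233 bases that is equally long on chromosome 1 but holds no annotated copy, and its last 43 bases are also the first 43 of mt-Atp6. Sequence outside annotated transcripts was not searched, so its share of 0% does not show that it lacks an identical nuclear copy. Its last 90 bases (chrM:7880-7969, plus strand) are printed with the shared ones in capitals, since reads over them belong to both genes.
mt-Atp8: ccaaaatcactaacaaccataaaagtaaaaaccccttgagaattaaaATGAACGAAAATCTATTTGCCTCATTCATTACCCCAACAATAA

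The tRNA genes are 59 to 75 bases long, shorter than 1 read, and their counts spanned a wide range. Reads on them were counted without regard to strand. Such counts cannot be told apart from those of longer precursors or of RNA from the opposite strand. They are therefore not given as levels of mature tRNAs. mt-Tp (proline tRNA, chrM:15356-15422, minus strand) had 691 to 6196 counts per library. In mt-Tk (lysine tRNA, chrM:7700-7764, plus strand) and mt-Td (aspartate tRNA, chrM:6942-7011, plus strand), both within the stretch copied to chromosome 1, there were 1 and 2 counts over all 31 libraries. mt-Ts1 (a serine tRNA) lies in the same stretch and had 11 counts in all, with 0 in 27 libraries. mt-Tg (glycine tRNA) and mt-Tr (arginine tRNA), also within it, had 1809 and 1589 counts in all. mt-Tv (valine tRNA) at 314 and mt-Tf (phenylalanine tRNA) at 364, which lie outside, had fewer. mt-Tr lies in the interval with 74 instead of 73 bases on chromosome 1. mt-Tg adjoins mt-Nd3, which differs from its copy at base 3. The part of the copies in these tRNA counts was not tested. The most counted and the least counted tRNA genes are printed here.
mt-Tp: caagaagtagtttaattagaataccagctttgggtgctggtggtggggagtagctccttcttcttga
mt-Tk: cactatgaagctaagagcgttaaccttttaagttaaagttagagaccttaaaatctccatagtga
mt-Td: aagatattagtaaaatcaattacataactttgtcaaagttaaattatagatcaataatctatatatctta

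Of all mitochondrial counts of the 31 libraries, mt-Co1 took 29.6%, mt-Rnr2 (16S rRNA of the large subunit of the mitochondrial ribosome) 13.5%, mt-Cytb (cytochrome b of complex III) 13.0%, mt-Nd1 10.9%, mt-Rnr1 (12S rRNA of the small subunit) 9.65%, mt-Nd2 7.57%, mt-Nd4 6.94% and mt-Nd5 6.21%. mt-Nd6, the protein-coding gene whose template is the other strand, took 2.29%. It overlaps mt-Nd5 by 14 bases, and reads were counted without regard to strand, so its counts cannot be told apart from antisense reads over the same bases. Per kilobase of gene, the median over the 4 cortex A+/Pwt/wt libraries was 11418 CPM per kb for mt-Co1, 6861 for mt-Cytb, 6012 for mt-Nd1, 2786 for mt-Rnr1, 2569 for mt-Rnr2 and 1.58 for mt-Atp8. In the CD11b+ A+/Pwt/wt libraries the medians were 25016 CPM per kb for mt-Co1, 16619 for mt-Nd1, 15175 for mt-Rnr1, 14801 for mt-Cytb, 13573 for mt-Rnr2 and 6.03 for mt-Atp8, so mt-Co1 led and mt-Atp8 was last of the protein-coding genes in both. These are ranks of counts from oligo(dT)-selected RNA, and rRNAs and mRNAs need not be captured alike.

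**Figure D1:**
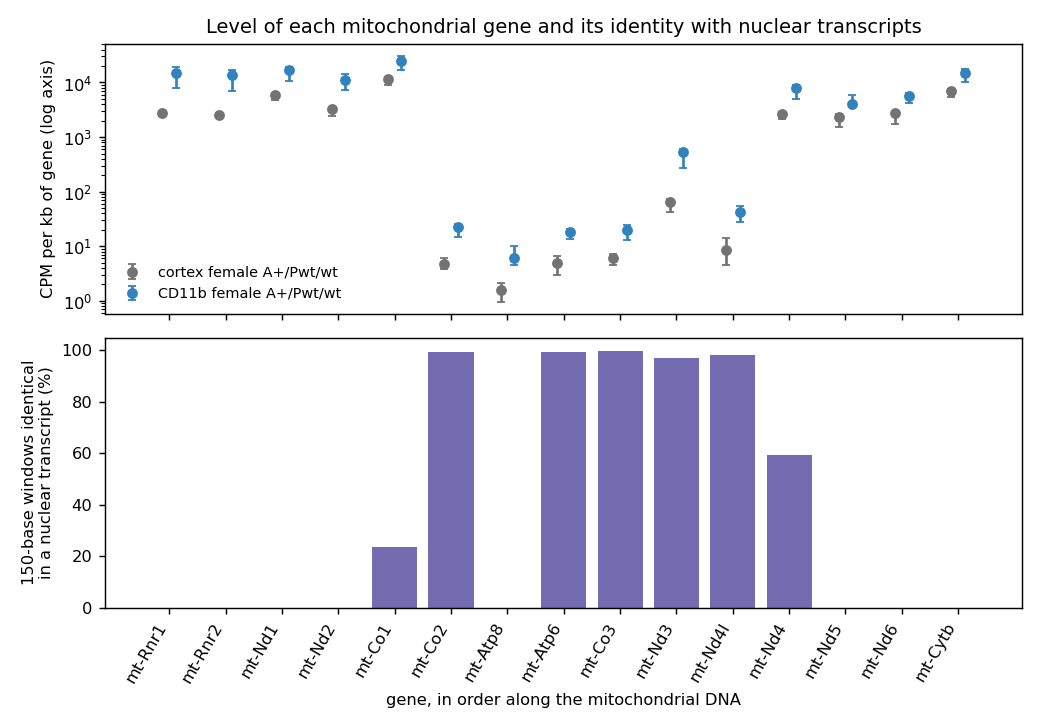
The 15 protein-coding and rRNA genes (x axis, in their order along the mitochondrial DNA) are plotted by level in CPM per kilobase (upper panel, log axis; median as point, lowest to highest of 4 libraries as bar) in cortex and CD11b+ A+/Pwt/wt mice, and by the percent of 150-base windows found unchanged in an annotated nuclear transcript (lower panel). mt-Co2 and mt-Atp6, at 99.4%, sit far below mt-Cytb and both rRNAs, at 0%. mt-Atp8 has the lowest level of all. Its 0% covers annotated transcripts only, and it lies within the stretch matched on chromosome 1, where no copy of it is annotated.

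The share of all counts that fell on the 37 genes was low and even in cortex and varied several-fold among CD11b+ libraries. It was 4.34% in the cortex A-/Pwt/wt library, 5.35%, 5.58%, 4.02% and 4.80% in cortex A+/Pwt/wt (4.94% ± 0.692, SD, n = 4) and 5.52%, 5.15%, 4.71% and 5.47% in cortex A+/Pki/ki (5.21% ± 0.374, SD, n = 4), so the cortex groups overlapped. In female CD11b+ libraries it ran from 5.10% to 24.5% with a median of 9.93% in A-/Pwt/wt, was 15.6%, 8.999%, 16.7% and 13.3% in A+/Pwt/wt, and 7.54%, 19.4%, 3.77% and 3.45% in A+/Pki/ki. Means were 11.4% ± 6.90 (SD, n = 7), 13.6% ± 3.39 (SD, n = 4) and 8.53% ± 7.46 (SD, n = 4), and the groups overlapped. In males it was 5.02%, 3.97% and 4.44% in A-/Pwt/wt (4.47% ± 0.528, SD, n = 3) and 10.2%, 12.8%, 11.8% and 7.40% in A-/Pki/ki (10.5% ± 2.34, SD, n = 4), and there the groups did not overlap. In bulk RNA, fewer cells of a type and less RNA per cell cannot be told apart.

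**Figure D2:**
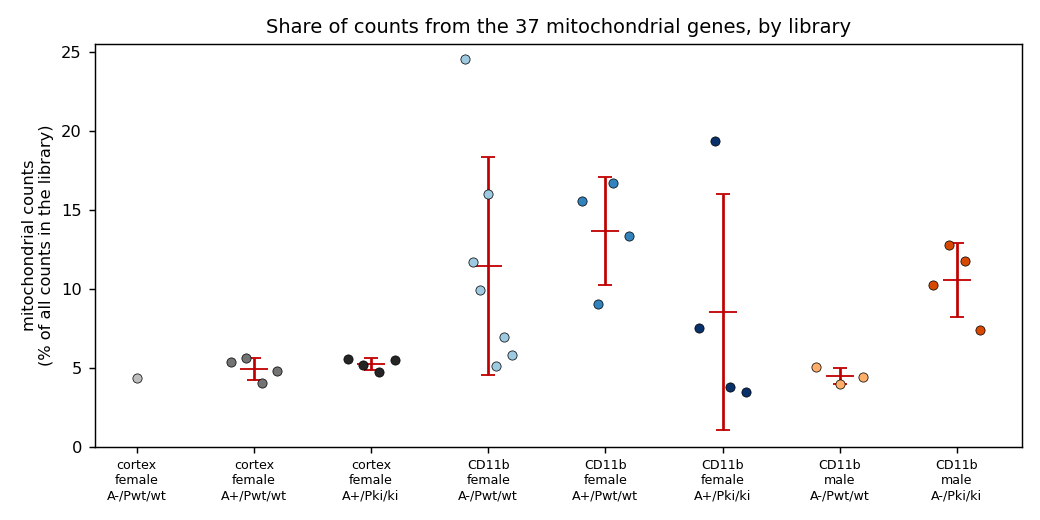
Percent of all counts on the 37 mitochondrial genes in each library (points), by group, with group mean and SD (bars; no SD for the single cortex A-/Pwt/wt library). Male A-/Pki/ki libraries, at 7.40% to 12.8%, all lie above male A-/Pwt/wt libraries, at 3.97% to 5.02%, while the female groups overlap.

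Without the APP/PS1 transgenes, the comparison of male Pki/ki with Pwt/wt mice asked what the PLCγ2 variant changes in CD11b+ microglia, and most mitochondrial genes were higher in the Pki/ki libraries. Of the 31 mitochondrial genes with enough counts to be tested, 24 were higher at an adjusted p under 0.05 (edgeR's quasi-likelihood test with Benjamini-Hochberg adjustment over all 16373 genes tested) and 0 were lower. Over all genes tested, 11.1% were called higher and 5.26% lower. CPM ranges of the groups lay apart in 22 of the 31, against 11.8% of all genes that lay apart in the higher direction. The median log2 fold change was 1.27 for the 13 protein-coding genes, 1.95 for the 2 rRNAs and 1.43 for the 16 tRNAs tested, against 0.00 over all genes.

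The rRNAs had the greatest log2 fold changes of the 15 protein-coding and rRNA genes. mt-Rnr2 was at 4071, 5236 and 3727 CPM in Pwt/wt mice 94, 101 and 102 and at 9784, 17961, 15010 and 17846 CPM in Pki/ki mice 84, 104, 136 and 139. The groups lay wide apart, with a log2 fold change of 1.93 (SE 0.33, edgeR adjusted p = 0.00697). mt-Rnr1 was at 3256, 4263 and 2901 CPM against 8249, 14764, 12564 and 13990 CPM, also without overlap, a log2 fold change of 1.96 (SE 0.32, edgeR adjusted p = 0.00610).

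Among complex I subunits, which form the proton-pumping arm of the enzyme that takes electrons from NADH, all 7 rose. mt-Nd1 was at 5001, 5617 and 4292 CPM in mice 94, 101 and 102 and at 7695, 10691, 14271 and 11443 CPM in mice 84, 104, 136 and 139, and its log2 fold change of 1.27 (SE 0.29, edgeR adjusted p = 0.0195) was close to that of mt-Nd2 at 1.25 (SE 0.29, edgeR adjusted p = 0.0207) and mt-Nd4 at 1.28 (SE 0.26, edgeR adjusted p = 0.0124). mt-Nd3, which differs from its nuclear copy at the base shown above, was at 37.4, 46.2 and 31.5 CPM against 65.7, 128, 148 and 132 CPM, a log2 fold change of 1.76 (SE 0.29, edgeR adjusted p = 0.00657), and mt-Nd4l differed by 1.64 (SE 0.34, edgeR adjusted p = 0.0131). At the lower end stood mt-Nd5, at 3368, 3772 and 3036 CPM against 4552, 4374, 8323 and 7002 CPM, with a log2 fold change of 0.96 (SE 0.29, edgeR adjusted p = 0.0492), and mt-Nd6 at 0.96 (SE 0.24, edgeR adjusted p = 0.0259). The Pki/ki mice 136 and 139 held the highest mt-Nd5 values.

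Cytochrome b and the complex IV subunits rose as well. mt-Cytb was at 6352, 6753 and 5700 CPM against 9412, 11794, 15904 and 13788 CPM, a log2 fold change of 1.15 (SE 0.28, edgeR adjusted p = 0.0246). mt-Co1 was at 14290, 15477 and 12902 CPM (mean 14223 ± 1289, SD, n = 3) against 22097, 25800, 39081 and 35824 CPM (mean 30700 ± 8053, SD, n = 4), a log2 fold change of 1.23 (SE 0.35, edgeR adjusted p = 0.0398). In both genes every Pki/ki library was above every Pwt/wt library. mt-Co2 and mt-Co3, at a few CPM only, differed by 1.39 (SE 0.29, edgeR adjusted p = 0.0140) and 1.56 (SE 0.28, edgeR adjusted p = 0.00797).

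Of the ATP synthase subunits, mt-Atp6 rose by a log2 fold change of 1.30 (SE 0.25, edgeR adjusted p = 0.00971). mt-Atp8, the only protein-coding gene that was not called, was at 0.660, 0.785 and 0.231 CPM against 0.752, 0.885, 1.29 and 1.45 CPM, ranges that overlapped, with a log2 fold change of 1.07 (SE 0.47, edgeR adjusted p = 0.145). Counts on 10 of the 16 tRNA genes were called higher, and mt-Tp, at 49.3, 51.2 and 40.0 CPM against 81.6, 105, 130 and 145 CPM, had the smallest adjusted p of all mitochondrial genes, with a log2 fold change of 1.43 (SE 0.22, edgeR adjusted p = 0.00505). Log2 fold changes of the tRNAs ran from 0.87 to 2.02.

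**Figure D3:**
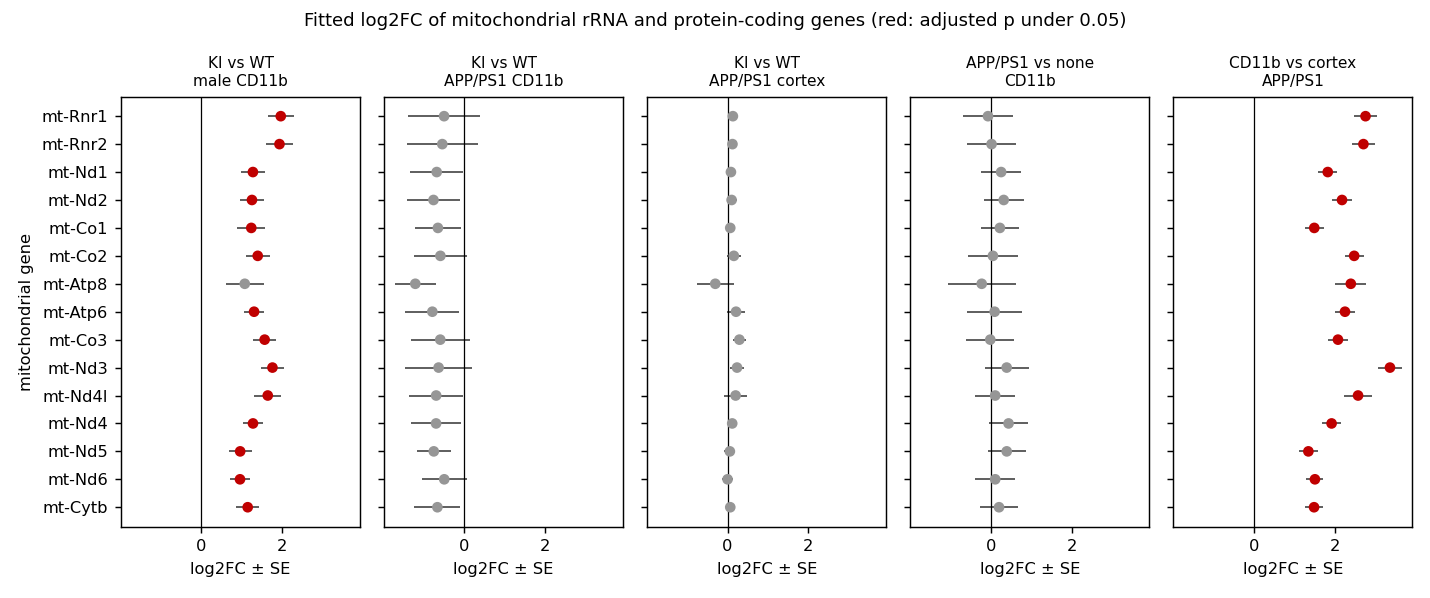
Log2 fold change (x axis) of each protein-coding and rRNA gene (rows) in each comparison, with its SE, derived from edgeR's F statistic, as the bar and called genes in red. In male CD11b+ microglia the values for Pki/ki against Pwt/wt lie between 0.96 and 1.96, in the A+ CD11b+ mice all lie below 0 with SEs that are wide, and in cortex they lie near 0.

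Markers of other cell types moved with this result. All 12 neuronal and all 9 astrocyte markers, 5 of 8 oligodendrocyte and 2 of 7 endothelial markers were called higher in the male Pki/ki libraries, and 1 of 10 microglial markers was called lower. The shares over all genes were 11.1% higher and 5.26% lower. Summed neuronal markers were at 222 to 306 CPM in Pwt/wt and 688 to 1422 CPM in Pki/ki, astrocyte markers at 757 to 962 and 1128 to 2374 CPM, oligodendrocyte markers at 19682 to 24030 and 27920 to 56954 CPM, and microglial markers at 24793 to 26778 and 13804 to 22435 CPM, with no overlap in any of these sums and no marker of these types at 0. The part of these cell types in the mitochondrial difference was not tested. Without mice 136 and 139, which held the highest neuronal, astrocyte and oligodendrocyte sums of the male libraries, 5 mitochondrial genes were called. They were mt-Rnr1 at 1.84, mt-Rnr2 at 1.79, mt-Nd3 at 1.46, mt-Tp at 1.10 and mt-Nd4 at 0.98 (log2 fold change), and mt-Co1 stood at 0.85 (edgeR adjusted p = 0.0786). The remaining Pki/ki mice 84 and 104 had neuronal sums of 688 and 804 CPM and oligodendrocyte sums of 27920 and 36085 CPM. These exceeded every Pwt/wt library, so the omission left the marker difference in place and did not test its part. Calls over all genes also fell there, from 2685 to 922 of 15881. Omission of the single Pwt/wt mouse 102 left 7 mitochondrial genes called, omission of mouse 94 left 9, omission of mouse 101 left 15 and omission of Pki/ki mouse 139 left 14, all with log2 fold changes above 0, while 894, 1111, 1236 and 1353 of all genes were called without mice 102, 94, 101 and 139.

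Nuclear-encoded subunits were also called higher. Of 78 tested subunits of the respiratory chain and ATP synthase, 35 were higher and 0 lower in the male Pki/ki libraries, with a median log2 fold change of 0.39. Of all genes tested, 11.1% were called higher and 5.26% lower, with a median of -0.001. The called ones were 13 of 36 in complex I, 0 of 4 in complex II, 5 of 9 in complex III, 9 of 12 in complex IV and 8 of 17 in the ATP synthase. They included Ndufb9 of complex I at 1.25 (SE 0.20, edgeR adjusted p = 0.00579), Cox6a1 of complex IV at 1.26 (SE 0.19, edgeR adjusted p = 0.00520), Cox4i1 at 0.98, Atp5md at 0.89 and Uqcr11 of complex III at 0.87. Mitochondrial mRNA counts were 7.04 ± 0.822 times (SD, n = 3) those of the nuclear subunits in male Pwt/wt and 11.5 ± 3.45 times (SD, n = 4) in male Pki/ki libraries, with ranges of 6.42 to 7.97 and 8.51 to 16.03 that did not overlap.

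With all libraries, the machinery that copies, transcribes and translates mitochondrial DNA gave no gene called higher. Of 45 genes tested, 0 were called higher by edgeR and 0 had an unadjusted p under 0.05 in that direction, with a median log2 fold change of -0.08. Tfam, which packages mitochondrial DNA and starts its transcription, had a log2 fold change of 0.09 (SE 0.14, edgeR adjusted p = 0.690), the RNA polymerase Polrmt 0.06 (edgeR adjusted p = 0.783), and the mRNA-stabilising partners Lrpprc and Slirp -0.20 (edgeR adjusted p = 0.277) and 0.53 (edgeR adjusted p = 0.250). Ppargc1a, a coactivator of mitochondrial biogenesis, was at 0.49 (SE 0.35, edgeR adjusted p = 0.351). Without Pki/ki mouse 104, Ppargc1a was called higher at 0.74 (edgeR adjusted p = 0.0173) and Lrpprc lower at -0.29 (edgeR adjusted p = 0.0405), in a fit that called 5439 of 16242 genes. The subunits of the mitochondrial DNA polymerase, Polg at -0.28 (edgeR adjusted p = 0.0486) and Polg2 at -0.53 (edgeR adjusted p = 0.0474), were called lower by a narrow margin that was lost under other scalings. They were the 2 of 45 machinery genes called lower, while 5.26% of all genes were called lower and 11.1% higher.

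The balance of rRNA to mRNA within the mitochondrial counts was also higher in male Pki/ki libraries. RNA was selected with oligo(dT) before sequencing, so this balance of counts need not be that of the RNAs in the cells. The ratio of rRNA to mRNA counts was 0.198 to 0.234 in male Pwt/wt (0.211 ± 0.0199, SD, n = 3) and 0.276 to 0.473 in male Pki/ki libraries (0.361 ± 0.0842, SD, n = 4), without overlap. It was 0.148 to 0.182 in all 9 cortex libraries, and 0.207 to 0.580 in A-/Pwt/wt, 0.260 to 0.414 in A+/Pwt/wt and 0.159 to 0.489 in A+/Pki/ki female CD11b+ libraries. Counts of mt-Rnr2 over those of mt-Rnr1 were 1.19 to 1.28 in all male and 1.32 to 1.51 in all female CD11b+ libraries, and 1.43 to 1.67 in cortex. The male libraries share a tag, b1, in their names that no female library carries, so sex and that tag cannot be told apart.

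**Figure D4:**
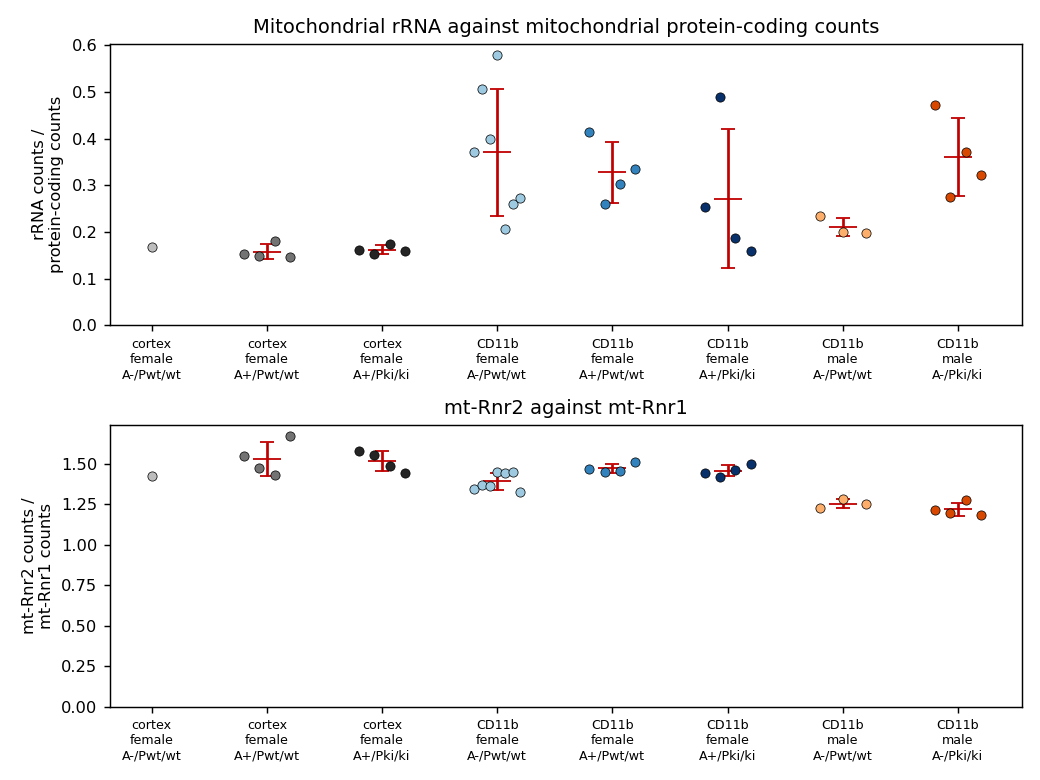
Ratio of mitochondrial rRNA to mRNA counts (upper panel) and of mt-Rnr2 to mt-Rnr1 counts (lower panel) in each library, by group. Cortex libraries lie at 0.148 to 0.182 in the upper panel, and male CD11b+ libraries, at 1.19 to 1.28, lie below all female ones in the lower panel.

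With the APP/PS1 transgenes, the same knock-in comparison in female CD11b+ microglia gave no mitochondrial gene that passed the test. Of 34 tested, 0 were called higher or lower by edgeR, as were 0% of all 17039 genes in either direction, 1 had an unadjusted p under 0.05, and DESeq2 and limma also called 0. Over all genes, 575 had an unadjusted p under 0.05. All 34 log2 fold changes lay below 0, with medians of -0.69, -0.53 and -0.62 for protein-coding, rRNA and tRNA genes against 0.00 over all genes, and no gene's ranges lay apart, against 1.76% of all genes in either direction.

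The A+/Pki/ki libraries spread widely, with mice 394 and 405 close to each other and mice 244 and 335 apart from them. mt-Co1 was at 39736, 26009, 46733 and 37562 CPM in A+/Pwt/wt mice 331, 367, 375 and 380 and at 22934, 46943, 12660 and 11849 CPM in A+/Pki/ki mice 244, 335, 394 and 405. Mouse 335 exceeded every A+/Pwt/wt library, while mice 394, 405 and 244 lay below all of them, and the log2 fold change was -0.66 (SE 0.57, edgeR adjusted p = 0.853). mt-Rnr2 was at 27023, 10977, 22905 and 20040 CPM against 8975, 37198, 3516 and 2834 CPM, with mouse 335 again above and mice 244, 394 and 405 below every A+/Pwt/wt library, a log2 fold change of -0.55 (SE 0.88, edgeR adjusted p = 0.865).

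mt-Atp8, the gene with the unadjusted p of 0.0413, was at 0.912, 1.09, 2.06 and 1.37 CPM against 0.635, 1.02, 0.368 and 0.318 CPM, a log2 fold change of -1.21 (SE 0.50, edgeR adjusted p = 0.853). mt-Nd5 was at -0.76 (SE 0.42, edgeR adjusted p = 0.853). Summed oligodendrocyte markers ran from 22548 to 49511 CPM in A+/Pwt/wt and from 7213 to 55563 CPM in A+/Pki/ki, microglial markers from 11043 to 19973 and from 11153 to 23330 CPM. Median log2 fold changes were -0.84 for neuronal, -0.68 for astrocyte, -0.28 for oligodendrocyte, -0.46 for endothelial and -1.12 for choroid plexus markers. They were 0.22 for microglial, 0.18 for border macrophage and 2.48 for neutrophil markers, and 0 markers were called. The part of these cell types was not tested. Without mice 394 and 405, which held the lowest oligodendrocyte sums, mt-Rnr2 turned to a log2 fold change of 0.30 and the median of the protein-coding genes was -0.02. Without mouse 335 that median was -1.64, and still 0 mitochondrial genes were called.

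Whether the knock-in effect in male A- mice differed from that in female A+ mice was tested in a model of all 4 groups, in which sex, transgenes and library tag differ together. Of 34 mitochondrial genes 0 were called by edgeR, as were 0% of all 17619 genes in either direction, although 24 of the 34 and 4664 of all genes had an unadjusted p under 0.05. The smallest adjusted p over all genes was 0.138. All 34 differences lay above 0, at 1.91 for mt-Co1 (SE 0.70, edgeR adjusted p = 0.145), 2.50 for mt-Rnr2 (SE 1.06, edgeR adjusted p = 0.166), 1.73 for mt-Nd5 (SE 0.54, edgeR adjusted p = 0.143) and 2.31 for mt-Atp8 (SE 0.73, edgeR adjusted p = 0.143) on the log2 scale.

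That result depended on a single library and on the test used. Without A+/Pki/ki mouse 335, 33 of the 34 genes were called higher, as 6199 of all 17495 genes tested in that fit were called in either direction, with mt-Co1 at 2.58 (edgeR adjusted p = 0.00236) and mt-Rnr2 at 4.02 (edgeR adjusted p = 0.000750). DESeq2, with all libraries, called 5 mitochondrial genes, namely mt-Co1, mt-Nd5, mt-Atp8, mt-Tq and mt-Ty, and 1185 of all genes.

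In the cortex of A+ mice, the knock-in comparison gave no called mitochondrial gene either. Of 33 tested 0 were called higher or lower by edgeR, as were 0% of all 18640 genes in either direction, DESeq2 and limma called 0 of them, and 514 of all genes had an unadjusted p under 0.05. Medians of the log2 fold change were 0.10, 0.13 and 0.25 for protein-coding, rRNA and tRNA genes, and no ranges lay apart, against 1.83% of all genes in either direction. mt-Co1 was at 18665, 19716, 13990 and 16616 CPM in A+/Pwt/wt mice 236, 257, 259 and 329 and at 18502, 18135, 16623 and 18883 CPM in A+/Pki/ki mice 184, 203, 216 and 222, a log2 fold change of 0.07 (SE 0.11, edgeR adjusted p = 1.00). The groups overlapped, and mouse 259 was lowest.

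The small SEs in cortex bound the differences more tightly than in CD11b+ microglia. mt-Rnr2 differed by 0.12 (SE 0.09), mt-Nd6 by 0.00 (SE 0.13) and mt-Co3 by 0.29 (SE 0.16) on the log2 scale, all with an edgeR adjusted p of 1.00. mt-Tl2, a leucine tRNA and the only mitochondrial gene with an unadjusted p under 0.05, which is named here because of that value, stood at 0.94 (SE 0.35, edgeR adjusted p = 1.00).

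The transgenes themselves were compared in female Pwt/wt CD11b+ microglia, A+ against A-, in libraries that also differ in their tag, b2 against b3, so transgenes and tag cannot be told apart. Of 34 mitochondrial genes 0 were called and 0 had an unadjusted p under 0.05 by edgeR, limma called 0 and DESeq2 called mt-Nd5, while 1.01% of all 17355 genes were called higher and 0.282% lower. Over all genes, 1755 had an unadjusted p under 0.05 by edgeR. mt-Co1 ran from 16986 to 68669 CPM with a median of 25719 in the 7 A- libraries and from 26009 to 46733 CPM with a median of 38649 in the 4 A+ libraries, so the A+ values lay within the A- range, with a log2 fold change of 0.23 (SE 0.47, edgeR adjusted p = 0.972) that was 0.67 without A- mouse 223. Medians of the log2 fold change were 0.21, -0.02 and 0.32 for protein-coding, rRNA and tRNA genes against -0.03 over all genes, and no ranges lay apart, against 2.18% of all genes in either direction.

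mt-Rnr2 differed by 0.02 (SE 0.61, edgeR adjusted p = 0.999), mt-Nd4 by 0.44 (SE 0.48, edgeR adjusted p = 0.906), mt-Nd5 by 0.40 (SE 0.47, edgeR adjusted p = 0.919) and mt-Atp8 by -0.22 (SE 0.84, edgeR adjusted p = 0.992) on the log2 scale. Without A- mouse 223, which had the highest mitochondrial share, the median of the protein-coding genes was 0.69, mt-Nd5 was at 0.97 and mt-Te, a glutamate tRNA, at 0.95, and the last 2 were called, in a fit that called 497 of 17258 genes. Of the nuclear subunits and of the expression machinery, 0 genes of 78 and 0 of 45 were called by edgeR, here and in both knock-in comparisons of A+ mice. In these 3 comparisons at most 4 machinery genes and 0 nuclear subunits had an unadjusted p under 0.05. Over all genes it was 1755 of 17355 for the transgenes. In the knock-in comparisons it was 575 of 17039 in CD11b+ microglia and 514 of 18640 in cortex.

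The 7 female A-/Pwt/wt CD11b+ libraries, all of the same tag, show how far mitochondrial levels moved among mice of 1 genotype. mt-Co1 rose in step with the markers of neurons, astrocytes and oligodendrocytes and fell as microglial markers rose. Across the 7 libraries, log2 CPM of mt-Co1 against the mean log2 CPM of the markers gave Pearson's r = -0.993 and Spearman's rho = -1 for microglia (exact permutation p = 0.000198 and 0.000397), 0.976 and 1 for neurons (exact permutation p = 0.000198 and 0.000397), 0.952 and 1 for oligodendrocytes (exact permutation p = 0.000198 and 0.000397) and 0.911 and 1 for astrocytes (exact permutation p = 0.00417 and 0.000397). These were 8 two-sided tests, and the adjusted exact permutation p was 0.00417 for the astrocyte r and 0.000454 for the other 7. Without the 2 libraries farthest from the median marker score, r was -0.981, 0.987, 0.981 and 0.988 for microglia, neurons, oligodendrocytes and astrocytes over the 5 remaining libraries.

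Mouse 223 stood at 68669 CPM of mt-Co1 with the lowest microglial sum, 8733 CPM, and the highest neuronal and oligodendrocyte sums, 3422 and 58426 CPM. All these measures share the library totals, and a rise in 1 set of genes lowers the CPM of the rest.

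**Figure D5:**
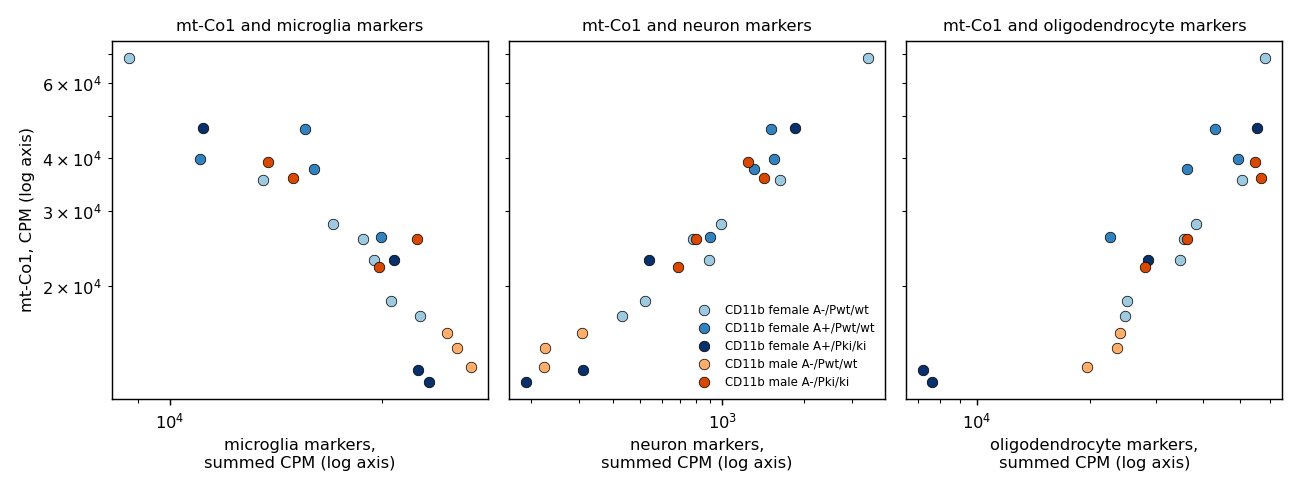
mt-Co1 level (y axis, CPM, log scale) against the summed CPM of microglial, neuronal and oligodendrocyte markers (x axes, log scale) in each CD11b+ library, coloured by group. High mt-Co1 goes with low microglial and high neuronal and oligodendrocyte sums, from mouse 223 at 68669 CPM down to A+/Pki/ki mouse 405 at 11849 CPM.

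Between the sources of RNA, the CD11b+ libraries of A+/Pwt/wt mice had a greater share of mitochondrial counts than the cortex libraries of A+/Pwt/wt mice. Of 34 mitochondrial genes tested, 33 were higher and 0 lower (edgeR), including all 13 protein-coding and both rRNA genes, while 37.7% of all 18541 genes were called higher and 40.2% lower. The exception was mt-Te, at a log2 fold change of 0.49 (edgeR adjusted p = 0.0780). CPM ranges lay apart for 29 of the 34, against 26.6% of all genes that lay apart in the higher direction. Tissue, dissociation and RNA extraction (a column kit for the cells and TRIzol for the cortex) differed together and cannot be told apart. Not every CD11b+ library exceeded cortex. The mitochondrial share was 4.02% to 5.58% in cortex A+/Pwt/wt and 3.97% to 5.02% in male CD11b+ A-/Pwt/wt libraries. In CD11b+ A+/Pki/ki mice 394 and 405 it was 3.77% and 3.45%, and in mice 244 and 335 of that group 7.54% and 19.4%. Summed microglial markers were 24793 to 26778 CPM in those male libraries, and 22505, 23330, 20851 and 11153 CPM in mice 394, 405, 244 and 335. They were 11043 to 19973 CPM in the CD11b+ A+/Pwt/wt libraries. Against cortex, all 7 endothelial, 6 border macrophage, 6 neutrophil, 5 erythrocyte and 4 choroid plexus markers were also called higher there. All 12 neuronal and 9 astrocyte markers were called lower. The part of cell composition was not tested.

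Log2 fold changes ranged widely among the genes. mt-Nd3 was at 24.6, 19.7, 15.1 and 25.2 CPM in cortex and 211, 95.1, 212 and 153 CPM in CD11b+ microglia, a log2 fold change of 3.37 (SE 0.29, edgeR adjusted p = 1.08e-06). mt-Rnr1 and mt-Rnr2 differed by 2.76 and 2.71, mt-Co2 by 2.48, mt-Tp by 2.21, mt-Nd2 by 2.18 and mt-Nd1 by 1.83, while mt-Nd6 at 1.51, mt-Co1 at 1.498 (SE 0.24, edgeR adjusted p = 0.000159), mt-Cytb at 1.49 and mt-Nd5 at 1.35 (SE 0.23, edgeR adjusted p = 0.000268) differed least among protein-coding genes. mt-Nd2 accordingly made up 7.49% to 7.998% of mitochondrial mRNA counts in cortex and 10.6% to 11.6% in the CD11b+ libraries of these mice, without overlap.

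Of the 78 nuclear subunits 14 were higher and 40 lower in CD11b+ microglia, with a median log2 fold change of -0.35 against -0.06 over all genes. By complex, 3 were higher and 20 lower of 36 in complex I, 0 and 2 of 4 in complex II, 2 and 6 of 9 in complex III and 4 and 9 of 17 in the ATP synthase. In complex IV 5 were higher and 3 lower of 12, with a median of 0.17. Those called lower included Ndufa11 of complex I at -1.27, Atp5g3 of the ATP synthase at -1.17, Cyc1 of complex III at -1.11 and Sdhb of complex II at -0.88, and in complex IV Cox5a was at -1.46 and Cox7a2l, which joins complexes III and IV, at 1.20. Mitochondrial mRNA counts were 3.02 to 4.89 times those of the nuclear subunits in the cortex A+/Pwt/wt libraries and 11.5 to 20.9 times in the CD11b+ A+/Pwt/wt libraries. Of the 45 machinery genes 12 were higher and 17 lower, shares no greater than the 37.7% and 40.2% of all genes. Ppargc1a was at -2.56 (SE 0.20, edgeR adjusted p = 4.81e-07), the transcription termination factor Mterf2 at -2.52 and Tfam at -0.42 (SE 0.10, edgeR adjusted p = 0.00332), while Slirp was at 1.24 and Polg2 at 2.12. Polrmt at -0.05 (SE 0.14, edgeR adjusted p = 0.741) and Lrpprc at -0.08 (SE 0.09, edgeR adjusted p = 0.436) did not pass the test.

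The annotated nuclear copies moved with the mitochondrial genes. Summed over the copies, the level was 85.6 to 102 CPM in male Pwt/wt and 143 to 272 CPM in male Pki/ki libraries, without overlap, and 80.7 to 126 CPM in cortex A+/Pwt/wt against 172 to 281 CPM in CD11b+ A+/Pwt/wt libraries. Gm13340, at a mean of 51.2 CPM over all libraries, was the copy with the most counts. How much of these counts came from the nuclear copies and how much from mitochondrial RNA was not tested.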

How the data were processed

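RNA from cortex tissue and isolated CD11b+ cells was sequenced as oligo(dT)-selected, paired 150-base reads. The authors checked reads with FastQC 0.11.7, trimmed them with Trimmomatic 0.39, aligned them to GRCm38 with STAR 2.7.9a and counted unique alignments per gene with featureCounts 2.12.0 in R 4.2.2 irrespective of strand, with GENCODE M25 genes. Versions are those of the submitters' processing notes, and the study's methods list further versions of featureCounts and R. The deposited raw count tables were used for all levels and tests, and the deposited variance-stabilized values, on a log2 scale, made by the authors with DESeq2, for 1 alternative. No columns remained without a sample (0).

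CPM is the count of a gene per 1000000 counts of its library. Tests used edgeR 4.0.16 (quasi-likelihood, TMM, two-sided) on genes that reached 10 counts in 3 or more of the libraries compared, in R 4.3.3, with Benjamini-Hochberg adjustment over all genes and a threshold of 0.05. The SE printed with a log2 fold change is its absolute value divided by the square root of the F statistic of that test. Only the groups compared were fitted. Log2 CPM in correlations used a prior count of 2. The fit was tested on simulated data. Library totals of 16229831 to 43129427 counts set the precision, and the genes with few unique reads have the widest errors. Alternatives were DESeq2 1.42.0, its size factors, scaling by nuclear genes, no filter, limma 3.58.1, omission of each library and, chosen after seeing the data, omission of mice 136 and 139 and of mice 394 and 405.

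Nuclear copies were found by BLAST 2.17.0 (at least 80% identity) among GENCODE M21 transcripts of GRCm38, from which the sequences were read. Coordinates are of that annotation. The named genes were all mitochondrial protein-coding and rRNA genes, tRNA genes that passed the filter, the genes Tfam, Polrmt, Lrpprc, Slirp and Ppargc1a, and called genes with the largest changes of each list. Members and lists were chosen with earlier results of these data known. Python 3.11.15, pandas 2.3.3, numpy 2.4.6 and scipy 1.17.1 were used.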

Additional observations from a re-analysis of the deposited data

Results flagged for a closer look

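In groups of 4 to 10 libraries, 126 tests by Dixon's rule marked 12 values that lie far from the rest of their group, and chance alone marks about 1 in 20. Of these, 7 belonged to mouse 223 of the CD11b+ A-/Pwt/wt group, whose mt-Co1 (68670 CPM), mt-Co2 (36.1 CPM), mt-Atp6 (33.3 CPM), mt-Atp8 (6.17 CPM), mt-Nd4l (27.0 CPM), mt-Nd5 (14850 CPM) and mt-Tp (305.5 CPM) were the highest of 7. In the CD11b+ A+/Pki/ki group, mouse 335 stood above the other 3 libraries in mt-Co2 (22.8 CPM) and mt-Atp6 (17.0 CPM), and mouse 244 below them in the mt-Nd6 share of mitochondrial mRNA counts (2.698%). In the cortex A+/Pwt/wt group, mouse 259 had the highest ratio of rRNA to mRNA counts (0.182) and the lowest mt-Nd6 level (917 CPM). No cause was tested.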

How the results depend on the processing

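The mitochondrial genes called higher in male Pki/ki libraries numbered 24, 20 to 28 under the other scalings, tools and filter, 7 to 28 when single libraries were left out and 5 without mice 136 and 139. In the A+ against A- comparison, DESeq2 called 1 mitochondrial gene higher and leaving out single libraries gave 0 to 2. In the test of the difference between the knock-in effects, DESeq2 called 5 and leaving out single libraries gave 0 to 33. With the 50 most counted nuclear genes left out of the total, the mitochondrial share was 4.78% in cortex A-/Pwt/wt, 5.77% in cortex A+/Pki/ki, 5.46% in male A-/Pwt/wt and 12.9% in male A-/Pki/ki libraries. The sign turned for mt-Rnr2 in the A+ CD11b+ knock-in comparison without mice 394 and 405 (0.30), and for mt-Atp8 between A+ and A- under DESeq2 (1.08) and limma (0.19). When single libraries were left out it also turned for mt-Co1 (-0.0122 to 0.147) and mt-Nd6 (-0.127 to 0.0720) in cortex, for mt-Atp8 (-0.53 to 1.12) and mt-Rnr2 (-0.17 to 0.37) between A+ and A-, and for Polrmt between CD11b+ microglia and cortex (-0.115 to 0.0783). Polg and Polg2 lost their calls under scaling by nuclear genes and without the filter (edgeR adjusted p of 0.0505 and 0.0510, and 0.319 and 0.0905), and under limma mt-Co1 and mt-Nd5 did (limma adjusted p of 0.102 and 0.0703). The cause of these shifts was not tested. No paired analysis was possible because the groups compared share fewer than 2 mouse numbers. With 3 or 4 libraries in most groups, and SEs of 0.57 for mt-Co1 and 0.88 for mt-Rnr2 in the A+ CD11b+ knock-in comparison, only large differences were detectable there.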
